A study of Mus musculus with 8 samples.

Results

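The genes described are 10 that are typical of tissue macrophages: Lyz2, Cx3cr1, Mrc1, C1qa, C1qb, C1qc, Cd68, Laptm5, Pf4 and Csf1r. All 10 were found by symbol among the 52778 features of the expression table, each on a reference chromosome. All 10 passed the filter on low values, which asked for 1 TPM or more in 4 or more of the 8 libraries. TPM values are abundances corrected for the length of the transcript and for the size of the library. The genes were chosen from macrophage markers after the TPM of these same control and mutant libraries had been seen. For these 10 genes the difference between genotypes is therefore a description, and no p-value is given for it.

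The tissue was the cardiac ventricle at embryonic day 11.5. Controls gave 4 libraries, and embryos with an Atf4 frameshift on both alleles gave another 4. The mutant allele lacks 7 bases of exon 3, removed with CRISPR/Cas9. It leaves the polyadenylation signal of the transcript in place, and neither group received a drug. The labels call the mutants global knockouts, yet their genotype field reads C57BL/6 WT for controls and mutants alike, so groups were taken from the sample titles. The protocol text attached to the samples names cultured cortical neurons and depletion of ribosomal RNA, whereas the design text names dissected ventricles and an mRNA kit. All libraries carry the same batch label, and the design text calls those of a genotype biological replicates without saying whether they share litters or pools.

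Macrophages are phagocytes that engulf dying cells and debris. The first ones to enter the embryonic heart descend from yolk sac progenitors and depend on the receptor CSF1R, and they are sparse at this stage. They are known for making the 3 chains of C1q, the recognition unit of the classical complement pathway, and for their scavenger receptors and lysosomal proteins. In whole tissue, fewer macrophages and less RNA per macrophage cannot be told apart.

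The libraries were typical of heart muscle by their markers. Actc1, Myl2, Myh7, Myl3, Nppa and Tnnt2, genes of the contractile apparatus and of the chamber hormone ANP, were the 6 most abundant of 14 cardiomyocyte genes, and the list summed to 41993 to 44343 TPM for controls and 41109 to 44212 for mutants. The features listed summed to 923473 to 949762 TPM per library, and 15380 to 15584 features per library reached 1 TPM. TPM keeps no read depth, so each SD is the spread across the 4 libraries of a genotype. Standard errors of fold changes are those of limma, which moderates the spread of a gene with that of other genes of like level. Atf4 itself held 105 to 121 TPM among the controls and 148 to 185 among the mutants, with no overlap. Since the allele keeps the transcript, this level does not check the genotype. Over the 15545 genes tested with limma, 6 had an adjusted p below 0.05, or 0.0386%. Of these, 5 were lower and 1 was higher in the mutants. The higher gene was Atf4, with a log2 fold change of 0.57 (standard error 0.071) and an adjusted p of 0.043 in limma.

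Of the 10 macrophage genes, 9 were lower in the mutants and 1, Pf4, was not. None of the 10 was among the 6 genes past the adjusted threshold. The median log2 fold change over the 10 was -0.45, beside a median of -0.0033 over all 15545 genes tested. In 4 of the 10, Cx3cr1, Mrc1, C1qb and Laptm5, all 4 mutant values lay below all 4 control values, which was the case in 2.05% of all genes tested. Because the 10 genes were chosen with this contrast known, nothing is read from that comparison. In Cx3cr1 the lack of overlap also follows from how it passed the filter, through the controls alone. Fold changes are on the log2(TPM + 1) scale, which understates differences between low values.

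**Figure D1:**
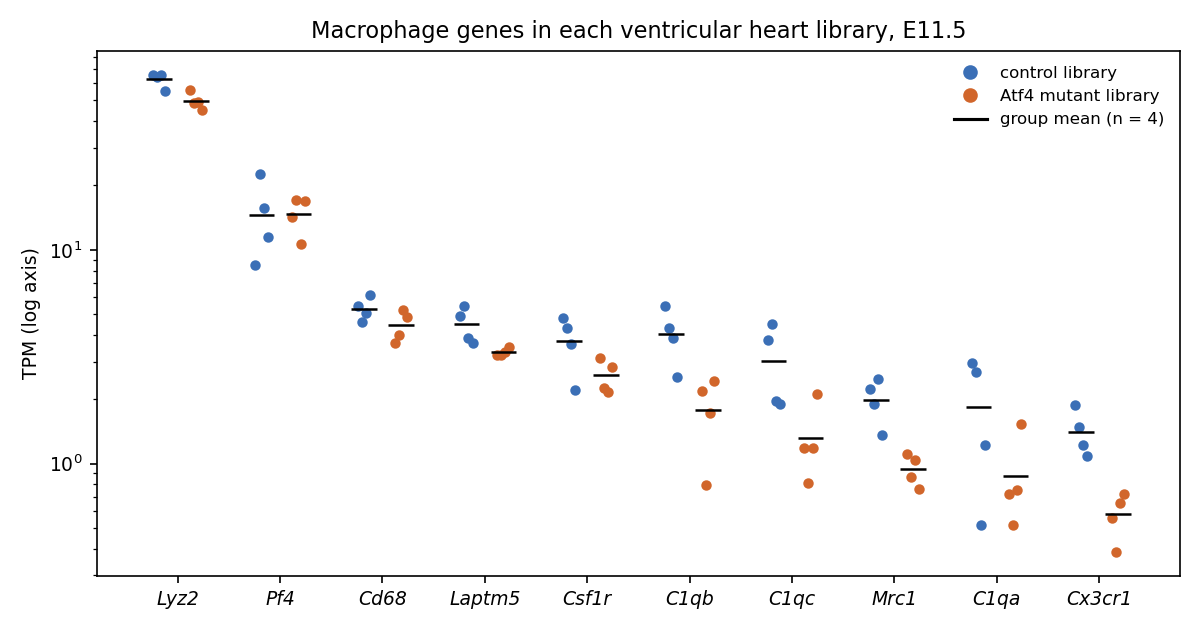
TPM of the 10 macrophage genes in each library, on a log axis, ordered by mean level, with 4 control and 4 Atf4 mutant libraries per gene and a bar at each group mean. Lyz2 stands above all others, the C1qa controls run from 0.517 to 2.96 TPM and those of Pf4 from 8.50 to 22.7 TPM, and the 4 mutant values of Cx3cr1, Mrc1, C1qb and Laptm5 lie below the control values.

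The 3 C1q genes are neighbours on chromosome 4 of GRCm38, transcribed from the minus strand. C1qb lies at bases 136880126 to 136886200, C1qc at 136889801 to 136892936 and C1qa at 136895916 to 136898844, with 3600 and 2979 bases between them. The stretch just upstream of each start is shown for C1qb and C1qc, which had the largest differences between genotypes on the log2(TPM + 1) scale, and for Mrc1, whose groups did not overlap, and Pf4, the single gene of the 10 that was not lower. Each run, from RefSeq on GRCm38.p6, holds 250 bases before and 50 bases after the start used in that table, 5′ to 3′ along the gene's own strand. That start is the outer end of the gene for C1qb, Mrc1 and Pf4, and lies 22 bases inside it for C1qc. Capitals mark the core of the binding motif of PU.1, the master transcription factor of macrophages (GAGGAA, or TTCCTC on the other strand), and, in Pf4 alone, a GATA motif (AGATAA), read by the factors that drive megakaryocytes and red cells.
C1qb, chr4:136886151-136886450, minus strand: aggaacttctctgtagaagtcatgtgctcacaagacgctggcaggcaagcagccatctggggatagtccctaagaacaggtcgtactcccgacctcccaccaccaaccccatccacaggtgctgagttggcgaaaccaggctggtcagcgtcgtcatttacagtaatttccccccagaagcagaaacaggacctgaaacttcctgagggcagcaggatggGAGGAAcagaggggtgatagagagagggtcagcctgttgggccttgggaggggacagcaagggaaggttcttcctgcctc
C1qc, chr4:136892865-136893164, minus strand: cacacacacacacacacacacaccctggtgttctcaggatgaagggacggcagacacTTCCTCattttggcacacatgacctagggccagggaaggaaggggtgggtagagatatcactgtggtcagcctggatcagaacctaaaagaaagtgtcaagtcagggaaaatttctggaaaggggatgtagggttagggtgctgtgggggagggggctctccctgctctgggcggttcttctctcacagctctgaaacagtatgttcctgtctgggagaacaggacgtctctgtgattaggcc
Mrc1, chr2:14229164-14229463, plus strand: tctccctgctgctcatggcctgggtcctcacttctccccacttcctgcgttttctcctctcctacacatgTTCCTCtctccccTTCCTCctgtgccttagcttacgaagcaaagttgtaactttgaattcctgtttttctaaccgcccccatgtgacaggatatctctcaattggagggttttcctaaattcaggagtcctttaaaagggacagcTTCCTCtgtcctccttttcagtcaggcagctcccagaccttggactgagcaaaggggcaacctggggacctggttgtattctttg
Pf4, chr5:90772185-90772484, plus strand: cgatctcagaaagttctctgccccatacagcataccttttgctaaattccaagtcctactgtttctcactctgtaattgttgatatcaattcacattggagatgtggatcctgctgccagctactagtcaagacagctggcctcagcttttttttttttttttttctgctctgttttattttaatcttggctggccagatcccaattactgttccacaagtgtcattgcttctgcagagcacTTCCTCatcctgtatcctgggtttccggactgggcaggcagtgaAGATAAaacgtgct

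Promoter entries were found for 8 of the 10 genes. The window of Laptm5 is built on a start 426 bases inside the gene and so lies within it. GAGGAA on either strand occurred in 6 of those 8 (Mrc1, with 3 matches, Cd68, with 2, and Laptm5, C1qb, C1qc and Pf4, with 1 each), and in 28.3% of the 32851 promoter entries of the table. The windows of Lyz2 and Cx3cr1 held none. AGATAA occurred in 1 of the 8 and in 11.2% of all entries. TGATGNAA, the element bound by dimers of ATF4 with C/EBP factors, occurred in 0 of the 8 and in 3.97% of all entries. TTGCNNAA, bound by C/EBP factors, occurred in Pf4 and Cd68 and in 10.8% of all entries, and TGACTCA, bound by AP-1, in Cd68 and in 5.20% of all entries. Both strands were searched for each of the 5 motifs, and no match of one overlapped a match of another in these windows. A match describes letters in a window and shows neither binding nor its absence.

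C1qb encodes the B chain of C1q. Its TPM was 5.46, 4.32, 3.86 and 2.54 in control replicates 1 to 4 and 2.19, 0.798, 1.73 and 2.45 in mutant replicates 1 to 4. The groups were apart by only 0.0901 TPM, between control replicate 4 and mutant replicate 4. This gave a log2 fold change of -0.86 (SE, standard error, 0.233), the largest in size of the 10.

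C1qc encodes the C chain. It was measured at 3.77, 4.49, 1.96 and 1.90 TPM for controls and 1.18, 0.810, 1.19 and 2.11 for mutants. Mutant replicate 4 lay above control replicates 3 and 4, so the groups overlapped, with a log2 fold change of -0.77 (SE 0.242).

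C1qa encodes the A chain and varied most between libraries of a group. Its values were 2.96, 2.68, 0.517 and 1.22 TPM among the controls and 0.720, 0.515, 0.754 and 1.52 among the mutants. Control replicates 1 and 2 were high, while control replicate 3 was as low as the lowest mutant. The log2 fold change of -0.52 had a standard error of 0.302, and it ranged from -0.33 without control replicate 1 to -0.79 without control replicate 3. Summed over the 3 chains, the controls held 8.91 ± 3.40 TPM and the mutants 3.99 ± 1.63 TPM (SD, n = 4 each), a ratio of 0.448. In every library C1qb held more TPM than C1qa, both scaled for length.

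Csf1r, Cx3cr1 and Mrc1 encode receptors on the macrophage surface. Csf1r, on chromosome 18 at bases 61105572 to 61131139, encodes the receptor for CSF1 and IL-34 that macrophages need to survive. It held 4.80, 4.31, 3.63 and 2.22 TPM for controls and 3.14, 2.27, 2.15 and 2.84 for mutants. Control replicate 4 lay among the mutants, and 3 controls lay above all of them. On the log2 scale the difference was -0.37 (SE 0.181), and it ranged from -0.55 without control replicate 4 to -0.26 without control replicate 1.

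Cx3cr1 encodes the receptor for the chemokine CX3CL1 and lies on chromosome 9 at bases 120048683 to 120068296. Its TPM was 1.87, 1.48, 1.22 and 1.08 in the controls and 0.556, 0.387, 0.658 and 0.720 in the mutants. The groups did not overlap, with 0.362 TPM between them. Every control and no mutant reached 1 TPM, so this gene passed the filter on low values through the controls alone. Its lack of overlap follows from passing in that way. Its log2 fold change came to -0.60 (SE 0.134), and the mutant mean was 0.410 of the control mean.

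Mrc1 encodes the mannose receptor CD206, a scavenger receptor of resident macrophages, on chromosome 2 at bases 14229414 to 14332023. It was measured at 2.24, 1.89, 2.49 and 1.36 TPM among the controls and 1.11, 0.870, 1.04 and 0.762 among the mutants. Again the groups were apart, here by 0.247 TPM. This gave a log2 fold change of -0.61 (SE 0.138). For Mrc1 and Cx3cr1 the pseudocount mattered, and with 0.1 in place of 1 the log2 fold changes were -0.98 and -1.15. The C1q genes shifted too, to -1.18 for C1qb, -1.11 for C1qc and -0.83 for C1qa.

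Lyz2, Cd68 and Laptm5 encode proteins of the lysosome or of secreted defence. Lyz2 encodes lysozyme M, which cuts bacterial cell walls, on chromosome 10 at bases 117277541 to 117282272. It was by far the most abundant of the 10, at 66.0, 64.5, 65.6 and 55.2 TPM for controls and 55.9, 48.3, 49.2 and 45.0 for mutants. Mutant replicate 1 exceeded control replicate 4 by 0.679 TPM, and all other mutants lay below all controls. On the log2 scale the difference was -0.34 (SE 0.075), and without control replicate 4 it was -0.40.

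The level of Lyz2 is uncertain in 1 respect. Its neighbour Lyz1, 5522 bases away, has a transcript identical to that of Lyz2 in 96.0% of 1262 aligned bases, and 15.4% of all stretches of 50 bases in the longest Lyz2 transcript also occur in Lyz1 (GENCODE M21). How reads shared by both were counted is not given in the sources used here. Lyz1 held 12.8, 8.30, 15.5 and 9.06 TPM among the controls and 9.82, 10.2, 9.18 and 8.83 among the mutants. Its groups overlapped, and its log2 fold change of -0.20 (standard error 0.165) had an adjusted p of 0.908 in limma. Lysozyme M is also made by neutrophils and monocytes, and a list of 14 genes was set up for those cells. Lyz1 was on that list, but it cannot stand as a marker of those cells here, since it may share reads with Lyz2. Only Lyz1 and Plac8 were expressed enough to be tested. The neutrophil gene S100a8 was listed at 0 in every library, and Elane, Mpo, Ctsg, S100a9, Ltf, Ngp and Ly6c2 each stayed below 1 TPM everywhere. With no filter, every mutant lay below every control in 2 of the 13 genes of this list above 0 in any library. This was the case in 1.61% of all 35731 features above 0 in any library. The 2 genes were Csf3r and Ccr2, named after their values were seen. Csf3r, a growth factor receptor of neutrophils, held 0.0835 ± 0.0143 and 0.0267 ± 0.0248 TPM, and Ccr2, a chemokine receptor of monocytes, held 0.0570 ± 0.0316 and 0.00980 ± 0.0123 TPM (SD, n = 4 each). Summed over the 14, the level was 10.4 to 19.3 TPM for controls and 11.9 to 12.2 for mutants. Most of it was Lyz1, so the sum does not measure those cells. The 12 genes other than Lyz1 and Plac8 stayed below 1 TPM in every library. The part of such cells in the level of Lyz2 was not tested.

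Laptm5 encodes a lysosomal membrane protein of blood cells, on chromosome 4 at bases 130912890 to 130936148. Its TPM was 4.88, 5.47, 3.88 and 3.67 in the controls and 3.22, 3.23, 3.33 and 3.52 in the mutants. The mutants were close together and all below the lowest control, by 0.154 TPM. Its log2 fold change was -0.33 (SE 0.112). A second entry of Laptm5 and 1 of Pf4, both on alternative sequences, were listed at 0. Among the 10 genes, overlapping features were found for Cx3cr1 (Gm33858), Mrc1 (Mir511), Laptm5 (Gm38599) and Csf1r (Mir6983 and Gm52352), and the highest level of any of them was 0.0654 TPM.

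Cd68 encodes the lysosomal glycoprotein macrosialin, on chromosome 11 at bases 69664213 to 69666170. It held 5.44, 4.61, 5.04 and 6.16 TPM among the controls and 3.69, 3.99, 5.22 and 4.84 among the mutants. Here the groups interleaved, and control replicate 4, the lowest control for most of the other genes, was the highest. This gave a log2 fold change of -0.22 (SE 0.115).

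Pf4 encodes platelet factor 4, a chemokine of megakaryocytes that yolk-sac-derived macrophages also make, on chromosome 5 at bases 90772435 to 90773383. Its TPM was 8.50, 22.7, 15.6 and 11.5 in the controls and 14.2, 17.1, 10.6 and 16.9 in the mutants. Control replicate 1 was the lowest and control replicate 2 the highest of the 8 libraries. The means were 14.6 ± 6.13 and 14.7 ± 3.02 TPM (SD, n = 4 each), with a log2 fold change of 0.07 (SE 0.258). Its sign rested on single libraries, at -0.14 without control replicate 1 and 0.30 without control replicate 2.

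As a mean of log2(TPM + 1), the megakaryocyte genes had the same order among the controls as Pf4, while single genes differed. Of 13 megakaryocyte and platelet genes expressed enough to be tested, 11 were lowest in control replicate 1, and 7 were highest in control replicate 2 and 6 in control replicate 3. Ppbp, a platelet chemokine gene, held 4.19 TPM in control replicate 1 and 12.7 TPM in control replicate 2, and Itga2b, the platelet integrin subunit, held 3.69 and 7.95 TPM. In the other 9 macrophage genes, by contrast, control replicate 1 was the highest control 5 times. The 14 genes of the list summed to 27.9 to 62.5 TPM for controls and 38.0 to 48.7 for mutants, none was at 0 throughout, and the median log2 fold change of the 13 tested was 0.07. None passed the threshold in limma, at a lowest adjusted p of 0.835.

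**Figure D2:**
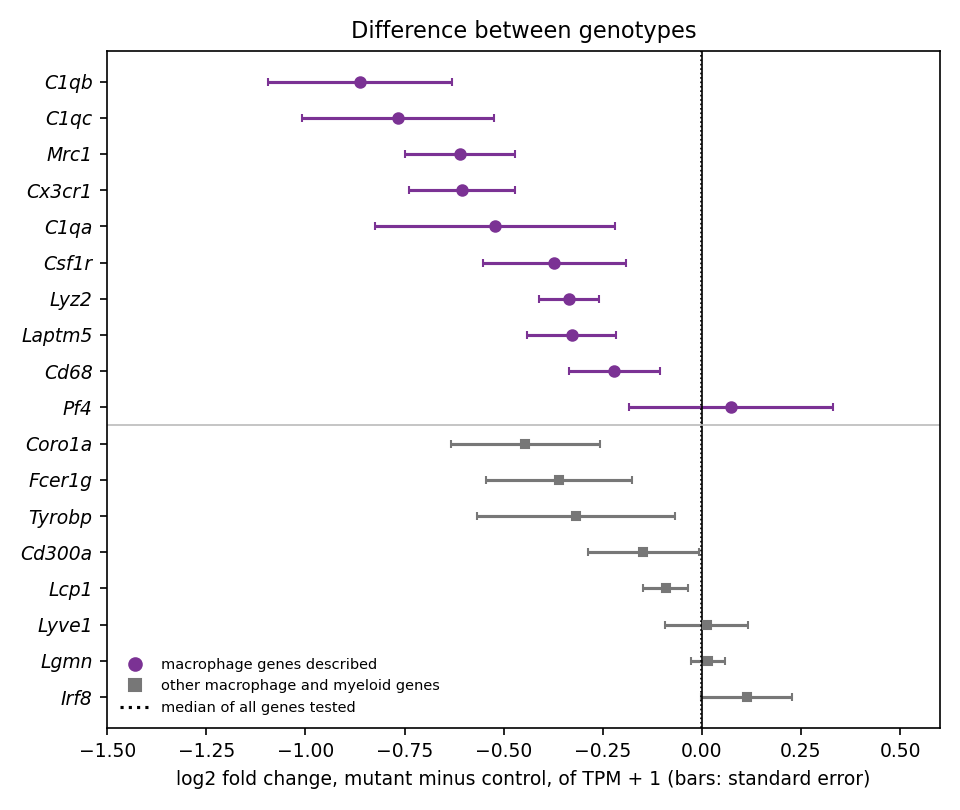
Log2 fold change (mutant minus control, of TPM + 1) with its standard error for the 10 macrophage genes and for 8 other macrophage and myeloid genes expressed enough to be tested, with the median of all genes tested as a dotted line. The estimates for the 10 run from -0.86 for C1qb to 0.07 for Pf4, and those for the other 8 from -0.45 for Coro1a to 0.11 for Irf8.

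As a mean of log2(TPM + 1) per library, the 10 genes held 2.72, 2.78, 2.46 and 2.30 in control replicates 1 to 4 and 2.14, 1.96, 2.07 and 2.27 in mutant replicates 1 to 4. Every mutant lay below every control, but mutant replicate 4 and control replicate 4 nearly met. Because the 10 genes were chosen with this contrast known, nothing is read from that separation. The group means were 2.57 ± 0.224 and 2.11 ± 0.130 (SD, n = 4 each), a difference of -0.45. Without Pf4 and Lyz2 the difference was -0.54. Lyz2 carried more than any other gene of the summed TPM, which was 103 ± 12.2 in the controls and 80.2 ± 4.29 in the mutants. The 8 genes other than Lyz2 and Pf4 summed to 25.9 ± 5.35 and 15.9 ± 2.41 TPM.

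The 10 genes did not share 1 order of libraries. Within the controls, replicate 4 was the lowest in 7 of the 10, with Cd68, C1qa and Pf4 as exceptions. Within the mutants, replicate 2 was the lowest in 4, and replicate 4 the highest in 5. Spread between libraries was above that of the typical gene in all 10, whose residual SDs of 0.124 (Lyz2) to 0.512 (C1qa) on the log2 scale exceeded the median of 0.103 over all genes tested. C1qa, C1qb, C1qc and Pf4 were more variable than at least 95.2% of the genes tested. The comparison was not limited to genes of like level. For each gene other than Lyz2 and Pf4, at most 24.8% of the genes tested had a lower mean TPM. The 5 genes whose log2 values most resembled the mean of the 10, with group means removed, were Sec23a, Snx24, Synrg, Mrpl33 and Kat6b. Their Pearson correlations were 0.976 to 0.953 over the 8 libraries, given as a description of values that share libraries and scaling. They were the highest in a search of all 15545 genes tested, leaving out the 10. How much of their size comes from that search was not tested. None of these 5 is on the macrophage lists.

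**Figure D3:**
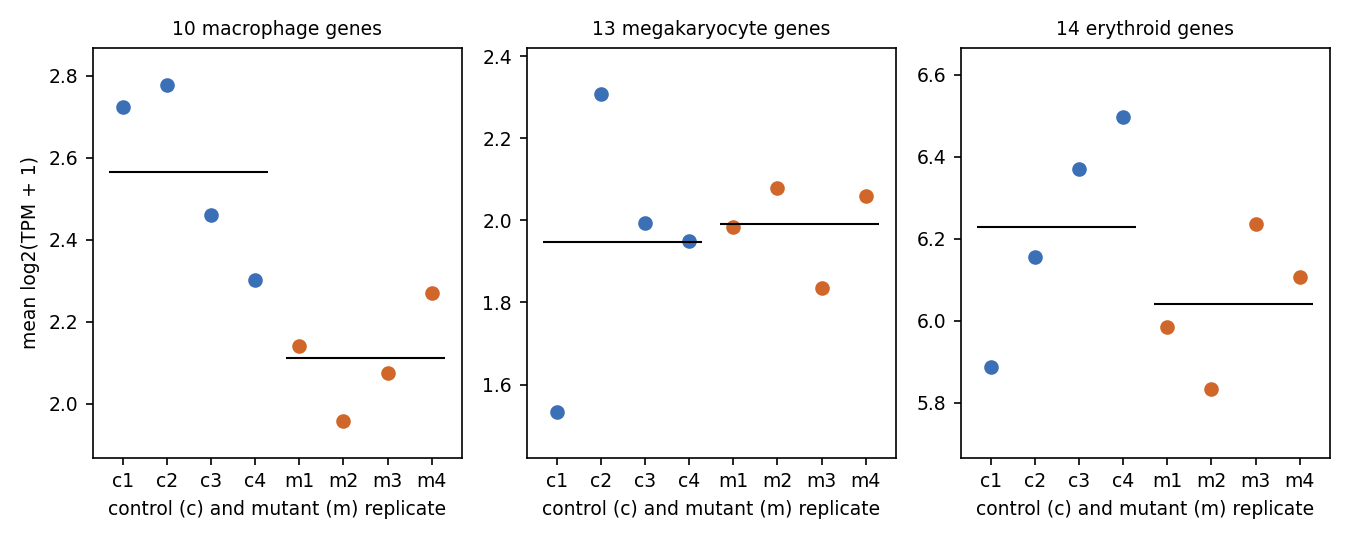
Mean log2(TPM + 1) per library for the 10 macrophage genes, 13 megakaryocyte genes and 14 erythroid genes, with controls in blue, mutants in orange, a bar at each group mean and the same span of 1 log2 unit on each axis. In the left panel, whose 10 genes were chosen with this contrast known, all mutants lie below all controls. In the megakaryocyte and erythroid panels the groups overlap. Control replicate 1 is high for macrophage genes but lowest of the controls for megakaryocyte and erythroid genes.

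A list of 40 other macrophage and myeloid genes, also chosen with earlier results of these data known, was set beside the 10. It summed to 138 to 158 TPM in controls and 131 to 142 TPM in mutants. Only 9 of the 40 were expressed enough to be tested, and 22 stayed below 1 TPM in every library. Of the 9, 6 were lower and 3 higher in the mutants, with a median log2 fold change of -0.15, and none passed the adjusted threshold in limma, a count of 0. In 0 of the 9 did every mutant lie below every control. At an unadjusted p below 0.05 there were 2, Coro1a among them, beside 6.1% of all genes tested.

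Coro1a, an actin regulator of blood cells, held 3.90 ± 1.14 TPM among the controls and 2.56 ± 0.612 among the mutants (SD, n = 4 each), with an adjusted p of 0.809 in limma. Fcer1g, a signalling adaptor of Fc receptors, held 2.71 ± 0.510 and 1.94 ± 0.668 TPM, with an adjusted p of 0.841 in limma. The most abundant of the list are not restricted to macrophages: Lgmn, a lysosomal protease, held 88.1 ± 5.04 and 89.1 ± 1.18 TPM, and Lcp1, an actin bundler, held 28.2 ± 1.96 and 26.4 ± 0.943 TPM. Lyve1, a hyaluronan receptor of resident macrophages and of lymphatic and some endocardial cells, held 3.00 ± 0.516 and 3.01 ± 0.122 TPM.

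With no filter, 39 of the 40 were above 0 in at least 1 library. Of these 34 were lower and 5 higher in the mutants, with a median log2 fold change of -0.15, beside -0.0011 over all 35731 such features. Among those 35731, 18831 were lower and 16900 higher. The 5 higher were Lgmn, Aif1, Lyve1, Irf8 and Cd14, named after their values were seen. In 4 of the 39 every mutant lay below every control, beside 1.61% of the 35731 features. This count of the unfiltered list was added after the data were seen. The list was chosen with earlier results of these data known, and the 35731 features were not limited to genes of like level. Nothing is read from these comparisons. Limma without a filter called none of the 39, a count of 0, and 7 had an unadjusted p below 0.05, beside 5.26% of the 35731 features in the same fit.

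The 4 were Spi1, Rac2, Ptprc and Cybb, also named after their values were seen. Spi1, which encodes PU.1, held 1.45, 0.432, 0.546 and 0.947 TPM for controls and 0.138, 0.0911, 0.234 and 0.308 for mutants. The unfiltered limma fit gave it a log2 fold change of -0.60 (standard error 0.171) and an adjusted p of 0.865. Rac2, a GTPase of blood cells, held 0.940, 1.07, 1.05 and 1.00 TPM among the controls and 0.383, 0.475, 0.703 and 0.661 among the mutants, and its adjusted p was 0.753 in the same limma fit. Ptprc, the pan-leukocyte phosphatase CD45, held 0.341 ± 0.0516 and 0.183 ± 0.0714 TPM (SD, n = 4 each). Cybb, an oxidase subunit of phagocytes, held 0.188 ± 0.0933 and 0.0621 ± 0.0485 TPM, and 1 mutant was listed at 0. The number of reads behind such low values is unknown. Adgre1, the F4/80 antigen that defines many mouse macrophages, had overlapping groups at 0.313 ± 0.109 and 0.271 ± 0.0992 TPM.

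**Figure D4:**
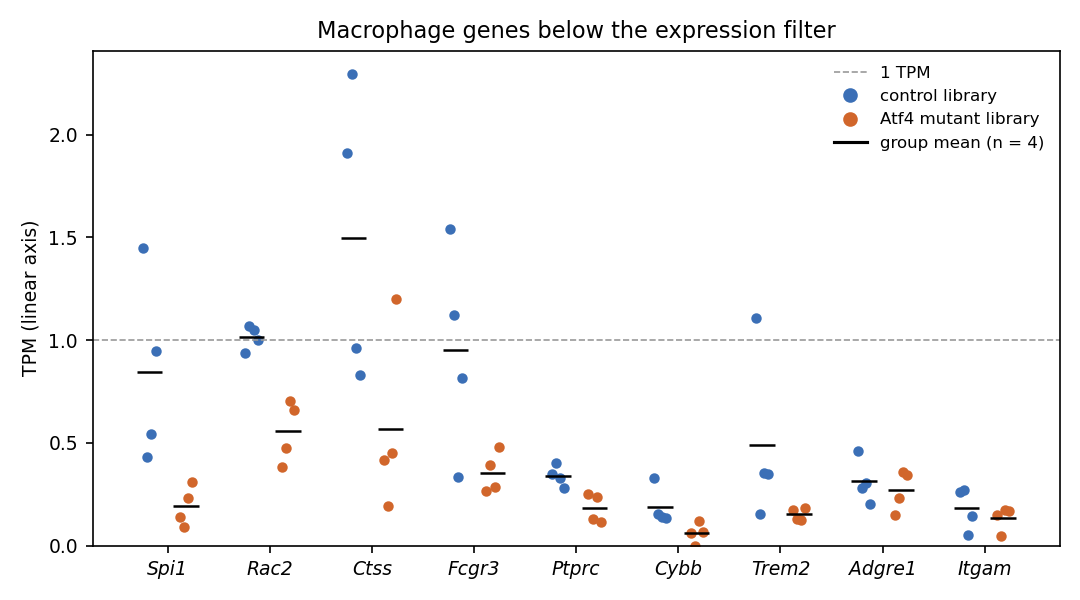
TPM of 9 macrophage genes under the filter on low values, on a linear axis, in 4 control and 4 Atf4 mutant libraries, with bars at the group means and a dashed line at 1 TPM; the 9 were picked after their values were seen. Spi1, Rac2, Ptprc and Cybb have no overlap between groups, whereas Adgre1 and Itgam interleave.

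Genes of the CSF1R pathway and of macrophage recruitment were compared next. Of 8 ligands and attracting factors, 6 were tested, 3 lower and 3 higher, with a median log2 fold change of 0.02. Csf1, the main ligand of CSF1R, held 11.7 ± 0.755 and 11.4 ± 0.491 TPM, and Cx3cl1, the ligand of CX3CR1, held 10.8 ± 1.01 and 10.1 ± 1.23 TPM (SD, n = 4 each). Cxcl12, Tgfb1 and Ccl2 had log2 fold changes of -0.03, 0.06 and 0.14. Ccl7, a monocyte chemokine, held 0.966 ± 0.239 and 1.46 ± 0.317 TPM, with an adjusted p of 0.809 in limma, the lowest of the list. Of 14 signalling and transcription factor genes, 10 were tested, 3 lower and 7 higher, with a median of 0.03 and a lowest adjusted p of 0.780 in limma. Stat3, Grb2, Zeb2, Plcg2 and Cbl, which act in many cell types, had log2 fold changes from -0.04 to 0.16. Cebpb had that lowest adjusted p and was higher in the mutants, at 3.22 ± 0.547 and 4.27 ± 0.455 TPM with overlapping groups. Maf held 4.83 ± 0.736 and 3.93 ± 0.219 TPM with no overlap between groups. Both were named after their values were seen. Maf was the only 1 of the 10 tested in which every mutant lay below every control, beside 2.05% of all genes tested.

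Complement genes other than C1q are made mostly by other cells of the tissue. Of 20 such genes, 9 were tested, 7 lower and 2 higher, with a median log2 fold change of -0.11. Calr and Cd93, a chaperone and an endothelial receptor that both have been linked to C1q binding, held 836 ± 44.3 and 857 ± 27.0 TPM, and 93.9 ± 1.96 and 86.9 ± 4.01 TPM. Cd93 had no overlap between groups and an adjusted p of 0.783 in limma, the lowest of the list. It was the only 1 of the 9 in which every mutant lay below every control, beside 2.05% of all genes tested. Cd59a, Serping1 and Masp1, a pair of complement regulators and a lectin-pathway protease, had log2 fold changes of -0.12, -0.15 and -0.02.

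Genes for the clearance of dying cells and for the lysosome, which most cells of the heart share with macrophages, were also compared. Of 18 clearance genes 15 were tested, 10 lower and 5 higher, with a median of -0.03. Mfge8, a bridge to dying cells, held 186 ± 4.29 and 171 ± 14.2 TPM, and Itgav, an integrin subunit that binds it, held 36.3 ± 0.774 and 40.0 ± 3.15 TPM, each with an adjusted p of 0.809 in limma. Rac1, Itgb5, Axl and Stab1 had log2 fold changes of 0.07, -0.09, -0.01 and -0.07. Of 20 lysosome genes 19 were tested, 14 lower and 5 higher, with a median of -0.03. Ctsd, Lamp1, Laptm4a, Psap, Cd63 and Grn, the most abundant, had log2 fold changes from -0.09 to 0.13.

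Other cell types were compared through markers. Of 14 erythroid genes, all tested, 11 had lower and 3 higher means in the mutants, with a median log2 fold change of -0.21 and none past the adjusted threshold in limma. They summed to 4768 to 8068 TPM for controls and 4445 to 6171 for mutants, and none was at 0. Hbb-y, an embryonic haemoglobin gene and the most abundant, held 2287 ± 507 and 1633 ± 275 TPM (SD, n = 4 each), with an adjusted p of 0.783 in limma. Hba-x, Hba-a1, Hba-a2 and Hbb-bt had log2 fold changes of -0.23, -0.37, -0.48 and -0.19, while that of Hbb-bh1 was 0.07, and the near-identical Hba-a1 and Hba-a2 may share reads. The order of libraries differed from that of the macrophage genes, with control replicate 1 the lowest control by mean log2 level, at 5.89 against 6.16 to 6.50. With the erythroid mean as a covariate, added after the data were seen, the mean difference of the 10 macrophage genes was -0.53. The erythroid mean itself was lower in the mutants, at 6.04 ± 0.172 against 6.23 ± 0.267 for controls (SD, n = 4 each). The part of red cells in the macrophage values was not tested.

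Markers of the solid tissue were compared in the same way. The median log2 fold change was -0.02 over 14 endothelial and endocardial genes, 0.0033 over 14 cardiomyocyte genes and -0.05 over 10 epicardial genes, all of which were tested. Pecam1, Cdh5, Tie1, Emcn, Npr3 and Tek held log2 fold changes from -0.08 to 0.09, and Upk3b, Krt19, Tcf21, Tbx18, Aldh1a2 and Wt1 from -0.19 to 0.06. Of 14 mast cell and lymphocyte genes, only Kit and Gata2, which other cells also express, were tested, while Cd3e, Cd3g and Ms4a1 were listed at 0 throughout. Of 12 hepatocyte and visceral endoderm genes, Trf, Apoa2 and Rbp4 were tested, with log2 fold changes of -0.05, 0.28 and 0.15, and the other 9 stayed below 1 TPM. Over the 14 lists, 137 genes other than the 10 were tested and limma called none, a count of 0, at a lowest adjusted p of 0.780. At an unadjusted p below 0.05 there were 13 of the 137, of which 9 were lower, beside 6.1% of all genes tested.

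**Figure D5:**
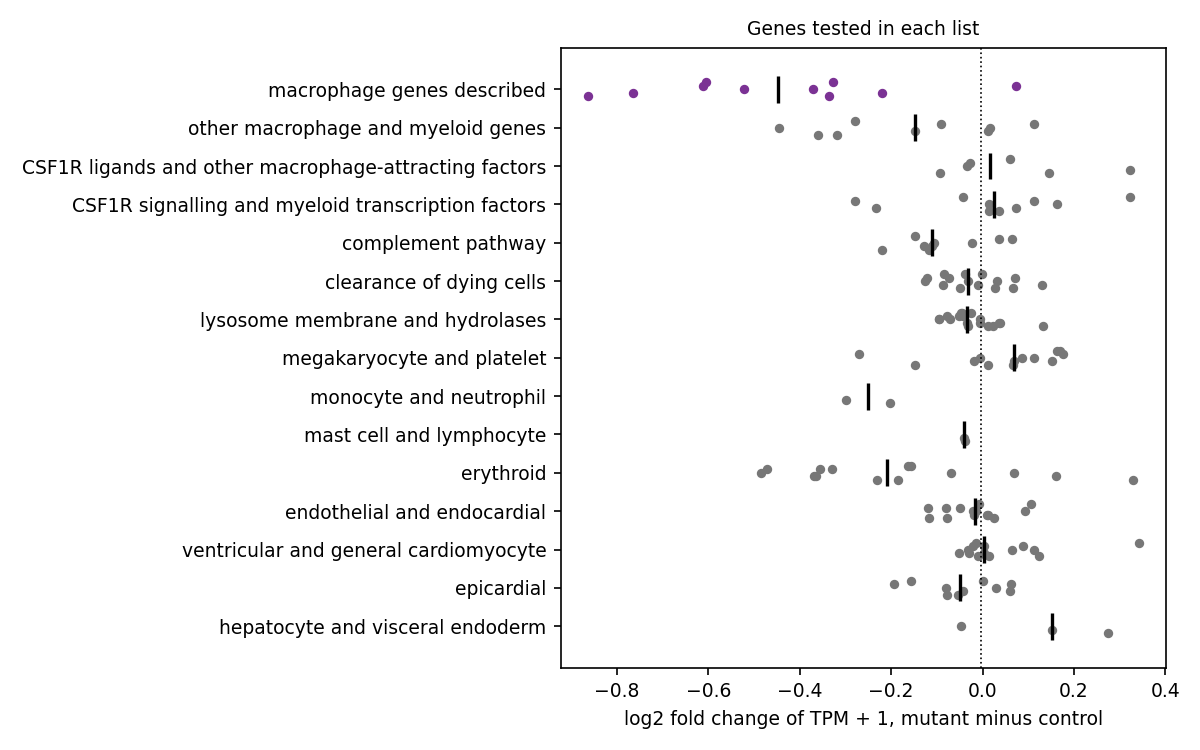
Log2 fold change (mutant minus control, of TPM + 1) of every tested gene in the 10 described and in the 14 other lists, with a bar at each list's median and a dotted line at the median of all genes tested. The 10 macrophage genes, chosen with this contrast known, have a median of -0.45, erythroid genes of -0.21 and the other lists of at least 4 tested genes of -0.15 to 0.07.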

How the data were processed

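The authors deposited 1 table of TPM with a column for each of the 8 libraries, 52778 features in all. The submitters' processing notes name FastQC, Trim Galore 0.6.7, HISAT2 2.2.1, StringTie 2.2.1, featureCounts and DESeq2 and the builds GRCm38 and mm10, with no roles. Annotation, strand setting and the handling of shared reads are not given in the sources used here. All 10 genes had the start and end of RefSeq on GRCm38.p6. 

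Values were analysed as log2(TPM + 1). Features with at least 1 TPM in at least 4 libraries, 15545, were compared in limma 3.58.1 (R 4.3.3) with variances following mean expression, no covariate, and two-sided Benjamini-Hochberg adjusted p-values across all genes at 0.05. The fit was tested on simulated data. Python 3.11.15, pandas 2.3.3, numpy 2.4.6, Biopython 1.88 and matplotlib 3.10.9 were used.

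The 10 genes and the 14 lists were chosen with earlier results of these data known. Named are the 10, Lyz1, the up to 6 most abundant tested genes of each list, any list gene past the threshold, and the 5 genes most like the mean. Other genes were named after their values were seen. Some genes that this rule names are not reported here. Other settings tried were 3 scalings, a pseudocount of 0.1, fitting without a filter or with one at 5 TPM, no variance trend, library weights, a replicate block, other summaries, each library left out and, added later, an erythroid covariate and the mean without Pf4 and Lyz2.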

Additional observations from a re-analysis of the deposited data

Results flagged for a closer look

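In groups of 4 libraries, a library was noted where its gap to its nearest neighbour exceeded Dixon's critical share of the group's range. This was tested 196 times and happened 11 times, where chance gives about 9.8. Among the 10 macrophage genes it happened once: Lyz2 in control replicate 4 stood at 55.2 TPM, below the 64.5 to 66.0 TPM of its group. The megakaryocyte list was low in mutant replicate 3, at a summed 38.0 TPM against 47.6 to 48.7 TPM, and so was its gene Tubb1, at 2.69 TPM against 5.02 to 5.41 TPM. Zeb2 was high in replicate 1 of both groups, with 15.2 TPM for the control and 15.5 TPM for the mutant. Cxcl12 was high in mutant replicate 3 at 118 TPM, Masp1 was low in mutant replicate 4 at 6.55 TPM, Tek was low in control replicate 4 at 78.7 TPM, and Myl3 was high in mutant replicate 1 at 3634 TPM. The clearance list was low in control replicate 3, at a summed 686 TPM, and the endothelial and endocardial list was high in control replicate 2, at 962 TPM.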

How the results depend on the processing

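In the alternatives run, 9 of the 10 genes kept a negative log2 fold change in every one (17 or 18 each), and Pf4 was positive in 15 of 18. The filter at 5 TPM kept only Lyz2, Cd68 and Pf4, so the mean per library was not run there. The median log2 fold change of these 3 was -0.22, and in 0 of the 3 did every mutant lie below every control. The mean difference of the 10 moved beyond the replicate spread only with a pseudocount of 0.1, to -0.67, and ranged from -0.54 to -0.38 with 1 library left out. The number of genes past the adjusted threshold was 6 (5 lower, 1 higher), and 6 lower with 0 higher under quantile normalization and under TPM rescaled without mitochondrial and haemoglobin genes. It was 0 with no filter, no variance trend or the erythroid covariate, and 0 to 3 with 1 library left out. Groups did not overlap in 572 genes, in 971 with no filter, and in 947 to 1178 with 1 library left out, where fewer samples are compared. Deviations of same-numbered libraries correlated at -0.082 to 0.035, so the numbers were not taken as pairs. With the replicate block the count past the threshold was 0 and the mean difference of the 10 was -0.45. TPM keeps no depth, which limits what can be said of genes under 1 TPM.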
